A study of Mus musculus with 2 samples.

Results

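A set of 7 genes that mark lipid-laden macrophages in many tissues was followed across liver cells of a saline mouse and a Ter119 mouse. Gpnmb, Trem2, Tyrobp, Spp1, Lpl, Plin2 and Itgax are 7 of the 26078 genes in the deposited matrices, and each was found by its symbol. They were chosen by their levels in the Kupffer cells of these 2 mice, which were already known, so those values are given as a description and not as a test. Ter119 is an antibody that binds a protein of red blood cells and of their late precursors. The 2 mice were C57BL/6J, 7 to 10 weeks old and housed free of specific pathogens. The Ter119 mouse received the antibody under the skin, 35 ug once and then 10 ug daily for 10 injections, and the other received saline of like volume. Livers were collected at 24 from the final dose, with no unit of time stated. Non-parenchymal cells, enriched on beads against F4/80 and CD11b, were profiled with 10x Genomics 3' chemistry, which counts unique molecular identifiers (UMIs). Since each group is 1 mouse, no comparison of the treatments can be tested, and every interval below is a 95% interval that covers counting error only. CD11b beads also capture monocytes, neutrophils and dendritic cells, so shares of cell classes follow the capture.

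TREM2 is a surface receptor for lipids, lipoproteins and debris, and it has no signalling tail of its own. It signals through DAP12, the adaptor encoded by Tyrobp, which recruits SYK. Macrophages that take up much lipid or many dying cells are known to turn on Gpnmb, Spp1, Lpl, Plin2 and Itgax together with Trem2, a state described as lipid-associated in fat, liver and brain. In the liver, Kupffer cells are the resident macrophages of the sinusoids and clear aged red cells, whereas CD11c, the protein of Itgax, is better known from dendritic cells and from macrophages that derive from monocytes.

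The saline matrix held 97181787 UMIs in 18354 barcodes and the Ter119 matrix 61892074 UMIs in 25760 barcodes. A barcode was kept when it had 1000 or more UMIs, 500 or more genes and a mitochondrial share no higher than 15%, which left 11572 and 13846, with medians of 6239 and 2803 UMIs. Cells were put in classes by the summed level of marker panels, and a cell was Kupffer-gated when a 12-gene Kupffer panel made up at least 150 of 10000 UMIs outside hemoglobin and no other panel passed its own threshold. That gave 9715 Kupffer-gated cells in saline, with a median of 6794 UMIs, and 8493 in Ter119, with a median of 3729. When all cells were clustered, the Kupffer cells of the mice fell into nearly separate clusters. Clusters 0, 2 and 5 held 4426, 2468 and 1302 saline cells and 0, 7 and 1 of Ter119, and clusters 1, 3 and 7 held 0 saline cells each and 3143, 2130 and 1000 of Ter119. The values below therefore compare unlike groups of Kupffer-gated cells, and cell state, mouse and library cannot be told apart. All 12 Kupffer markers had at least 20 CPM (the gene's UMIs over all UMIs of the summed cells, times 1e6) in both, in cells that the same panel had chosen, and their levels were unlike: Timd4 was 0.0418 times, Folr2 0.146 times, Clec4f 0.176 times and Vsig4 0.186 times as high in Ter119 as in saline, and Marco 4.64 times as high. Hemoglobin made up 0.0151% of the UMIs of Kupffer-gated saline cells and 10.4% of those of Ter119. In the same sums the neutrophil panel (10 of 10 markers with a UMI in both) summed to 177 CPM (saline) and 576 CPM (Ter119), the classical monocyte panel (8 of 8) to 107 and 60.6 CPM, and the endothelial panel (12 of 12) to 420 and 462 CPM. Their part in the results below was not tested. No barcode was removed as a doublet, and 133 barcode sequences occur in both matrices. Of these, 66 were Kupffer-gated in saline, with 0 Gpnmb UMIs, and 39 in Ter119, with 61 Gpnmb UMIs.

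Gpnmb, a membrane glycoprotein of lysosomes and phagosomes, was near absent from saline Kupffer-gated cells and abundant in those of Ter119. The saline cells held 37 Gpnmb UMIs in all, 0.51 CPM, and the Ter119 cells 13371, 404 CPM. The ratio was 792 (575 to 1126), and over all alternative settings it lay between 695 and 1034. Of 6396 genes that reached 20 CPM in either mouse only 1, the hemoglobin gene Hbb-bt, had a higher ratio. Because a deeper cell shows more genes, each cell was also thinned at random to 1000 UMIs. A Gpnmb UMI was then found in 0.0412% (0.0112 to 0.105) of saline and 29.7% (28.7 to 30.7) of Ter119 Kupffer-gated cells. Without thinning these shares were 0.309% and 62.3%.

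Trem2 was 6.39 times (6.13 to 6.67) as high in Ter119, at 260 CPM against 40.7 CPM. Unlike Gpnmb it was a measurable gene of the saline Kupffer-gated cells, with 2956 UMIs there. After thinning, 3.69% of saline and 21.8% of Ter119 Kupffer-gated cells had a Trem2 UMI. Its partner Tyrobp did not move with it. Its level was 2367 CPM with saline and 2026 CPM with Ter119, that is 0.856 times (0.849 to 0.864) as high, and it was found in 85.5% and 82.7% of thinned cells. The receptor was thus several times as high, while the adaptor was slightly lower as CPM and slightly higher under the scalings given below.

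Spp1 encodes osteopontin, a secreted protein that binds integrins and CD44. It had 125 UMIs in saline Kupffer-gated cells (1.72 CPM) and 1014 in those of Ter119 (30.6 CPM), a ratio of 17.8 (14.8 to 21.6). A single saline barcode held 77 of the 125 UMIs. Without it the ratio was 46.3, and with a mitochondrial limit of 5%, which left 6 saline UMIs, it was 74.9. The largest count in a Ter119 Kupffer-gated barcode was 14. Spp1 was detected in few cells, with a UMI in 0.0618% of thinned saline cells and 2.84% of thinned Ter119 cells. In other Ter119 classes that share was 2.56% in classical monocytes, 2.11% in neutrophils, 3.69% in erythroid cells and 5.93% in T or NK cells. Endothelial cells had 0.928%, non-classical monocytes 1.3% and conventional dendritic cells 1.1%. The interval of the Kupffer-gated share lay above that of endothelial cells and overlapped those of the other classes named here.

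The genes of lipid handling differed less. Lpl encodes lipoprotein lipase, which releases fatty acids from the triglycerides of lipoproteins. It was high in both mice, at 1657 CPM with saline and 2370 CPM with Ter119, so 1.43 times (1.42 to 1.44) as high, and found in 73.7% and 83.1% of thinned cells. Plin2 encodes perilipin 2, a coat protein of lipid droplets. It stood at 242 and 200 CPM, a ratio of 0.826 (0.803 to 0.850), and was found in 20.7% and 18.3% of thinned cells. Itgax, the alpha X integrin chain, had 437 UMIs in saline and 485 in Ter119 Kupffer-gated cells, that is 6.02 and 14.6 CPM, a ratio of 2.43 (2.13 to 2.78). Of thinned cells, 0.659% and 1.39% had an Itgax UMI. On the log2 scale the Itgax ratio was 1.28, and it fell under 1, to 0.91 with the 5% mitochondrial limit and to 0.99 when cells were thinned before they were summed. The Itgax difference also turned with the level of the Kupffer panel. In cells under 200 per 10000 Itgax stood at 106 CPM (83.1 to 133) in 208 saline cells and 23.6 CPM (19.2 to 28.7) in 1185 Ter119 cells. From 200 to under 250 it stood at 52.7 and 17.5 CPM, and from 250 to under 300 at 17.5 and 14.4 CPM, where the intervals overlap. Itgax was higher in Ter119 only in the 2 highest bins, 11.4 against 4.54 CPM and 6.06 against 2.43 CPM. Most saline cells, 6277 of 9715, lay in the highest bin. At matched panel levels the direction of the summed Itgax ratio thus held in the 2 highest bins and not in the lower ones.

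**Figure D1:**
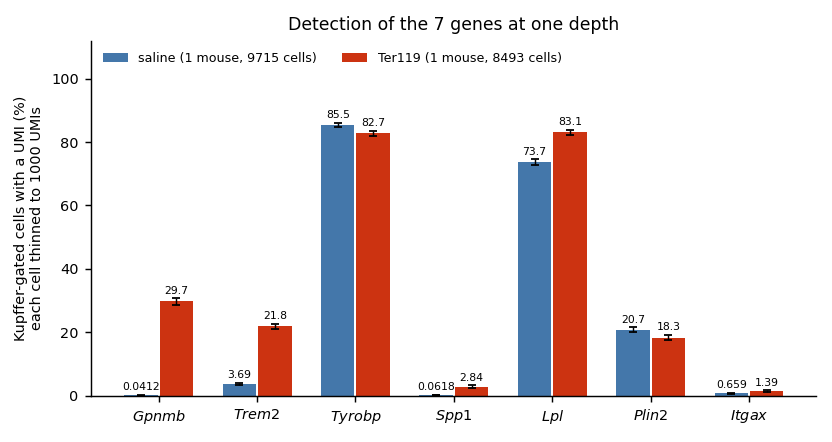
Share of Kupffer-gated cells with at least 1 UMI of each of the 7 genes, in percent, after every cell was thinned to 1000 UMIs, for the saline (blue, 9715 cells) and the Ter119 (red, 8493 cells) mouse, with exact binomial 95% intervals. Gpnmb goes from 0.0412% to 29.7% and Trem2 from 3.69% to 21.8%, whereas Tyrobp and Plin2 have bars of nearly equal height.

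By a 2-fold limit, 4 of the 7 genes (Gpnmb, Trem2, Spp1 and Itgax) were higher in Ter119 and 0 were lower. Over all 6396 genes, 195 (3.05%) were past this limit upward and 725 (11.3%) downward. The other 6 genes are among the 6396, and Itgax, under 20 CPM in both mice, is not. The median gene of the 6396 had a log2 ratio of -0.34. When both sums were rescaled by median-of-ratios factors that median became 0.04, with 369 genes higher and 324 lower, and with edgeR's TMM factors it became 0.02, with 354 and 337. Under these scalings the same 4 genes were past 2-fold, but Tyrobp and Plin2 changed sign. Their log2 ratios were -0.22 and -0.28 as CPM, 0.16 and 0.11 with median-of-ratios factors, and 0.13 and 0.08 with TMM factors. Relative to the median gene, Tyrobp and Plin2 were thus slightly high under each scaling. With hemoglobin UMIs left out of the totals they were at -0.07 and -0.12.

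**Figure D2:**
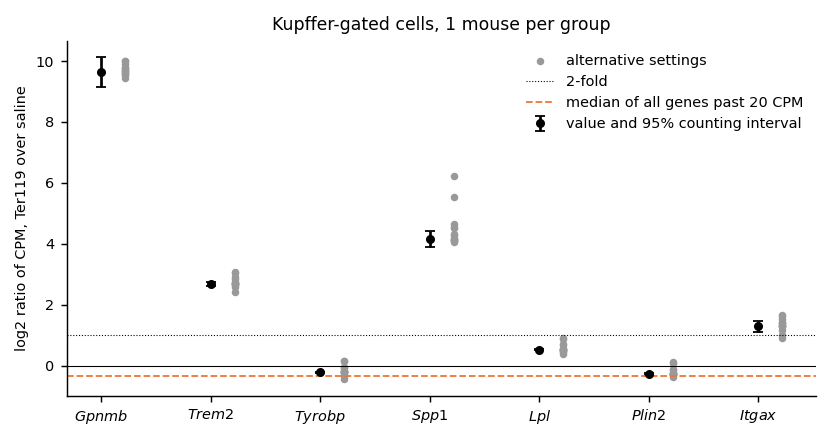
Log2 ratio of CPM, Ter119 over saline, in Kupffer-gated cells for the 7 genes. Black points with bars are the values with 95% counting intervals, grey points the values under 13 alternative settings, the dotted line marks 2-fold and the dashed line the median of 6396 genes, -0.34. Gpnmb, Trem2 and Spp1 lie above the 2-fold line under every setting shown, and Tyrobp and Plin2 lie around 0.

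All 7 are protein-coding genes on different stretches of the GRCm38 genome, by GENCODE vM21. Gpnmb lies at chr6:49036546-49070929 and Trem2 at chr17:48346401-48354147. Tyrobp lies at chr7:30413760-30417585 and Itgax at chr7:128129547-128150657 of the same chromosome. Spp1 lies at chr5:104435118-104441050, Lpl at chr8:68880491-68907448, all of these on the plus strand, and Plin2 at chr4:86648386-86670060 on the minus strand. The promoters of the 4 genes that were at least 2-fold higher are shown so that their start regions can be compared. RefSeq windows of GRCm38.p6, from 250 bases before to 30 bases after the start of transcription, were at hand for 5 of the 7 genes. They are printed 5′ to 3′ in lower case, each on the plus strand, with matches to TGANTCA, the core of AP-1 sites, in capitals:
Gpnmb, chr6:49036268-49036547: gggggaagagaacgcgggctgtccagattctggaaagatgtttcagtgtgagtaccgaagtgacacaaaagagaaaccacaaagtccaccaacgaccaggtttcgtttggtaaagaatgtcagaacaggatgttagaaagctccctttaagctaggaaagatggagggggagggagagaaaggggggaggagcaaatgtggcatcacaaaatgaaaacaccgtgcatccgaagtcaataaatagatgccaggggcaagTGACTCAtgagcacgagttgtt
Trem2, chr17:48346151-48346430: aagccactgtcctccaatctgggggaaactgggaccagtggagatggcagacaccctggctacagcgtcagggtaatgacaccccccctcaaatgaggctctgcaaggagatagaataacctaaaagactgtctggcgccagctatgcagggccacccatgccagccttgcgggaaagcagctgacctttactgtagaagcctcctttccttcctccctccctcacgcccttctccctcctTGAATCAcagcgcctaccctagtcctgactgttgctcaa
Itgax, chr7:128129300-128129579: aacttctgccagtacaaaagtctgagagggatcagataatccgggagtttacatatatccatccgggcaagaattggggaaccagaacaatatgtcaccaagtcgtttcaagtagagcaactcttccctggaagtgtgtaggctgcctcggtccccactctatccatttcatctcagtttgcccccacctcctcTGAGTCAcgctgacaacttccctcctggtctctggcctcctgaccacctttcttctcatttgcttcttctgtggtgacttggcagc
Spp1, chr5:104434861-104435140: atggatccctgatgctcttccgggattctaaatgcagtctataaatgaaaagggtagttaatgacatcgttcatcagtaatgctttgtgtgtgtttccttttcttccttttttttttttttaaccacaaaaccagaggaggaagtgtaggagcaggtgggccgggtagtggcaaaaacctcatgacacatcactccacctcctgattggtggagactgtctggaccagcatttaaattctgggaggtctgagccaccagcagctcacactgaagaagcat

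TGANTCA matched in the windows of Gpnmb, Trem2 and Itgax, and in 7.46% of all 32841 windows of the same length. The match begins 9 bases into the transcript in Gpnmb, by the RefSeq start, 9 bases before the start in Trem2 and 56 bases before it in Itgax. These 3 are among the 4 genes past 2-fold, and neither the Spp1 window shown nor that of its other listed start holds the motif. Lpl and Tyrobp had no window, so Plin2 was the only gene under 2-fold that was searched. The matches therefore cannot be related to the ratios. In all, 10 motifs were searched on both strands. CACGTG, an E-box bound by MITF and TFE factors and present in 6.80% of windows, was found in Plin2 alone. Its relative CATGTG, present in 13.4%, was found in none of the 5 genes. GAGGAA, in 26.0% of windows, was found in Trem2 and Spp1, AGGTCA, in 15.4%, in Trem2 and Plin2, TATAAA, in 13.1%, in Spp1, and TGACNNNGC, in 11.5%, in Itgax. The cyclic AMP element TGACGTCA (1.74% of windows), the STAT palindrome TTCNNNGAA (7.84%) and the NF-kB motif (0.149%) were found in none. None of the matches overlapped another motif, and a match of letters says nothing of binding.

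Across cell classes the 7 genes fell into unlike patterns. In Ter119, Gpnmb, Trem2, Lpl and Plin2 had their highest level in Kupffer-gated cells, Tyrobp in both kinds of monocytes, Itgax in conventional dendritic cells and Spp1 in the small T or NK class. Free RNA from broken cells enters every droplet, so each level was set beside the Kupffer panel in the same cells. In Ter119 cells of other classes the panel stood at 12.6% (erythroid cells) to 21.8% (endothelial cells) of its level in Kupffer-gated cells.

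Gpnmb in the other Ter119 classes lay between 8.13% of the Kupffer-gated level in 93 conventional dendritic cells and 27.5% in 118 T or NK cells. The T or NK value rests on 29 UMIs, 111 CPM (74.3 to 159), and classical monocytes stood at 97.2 CPM (74.3 to 125), 24.1% of the Kupffer-gated level. After thinning, a Gpnmb UMI was found in 11.0% of T or NK cells and 8.89% of B or plasma cells, classes that should lack the gene, with median depths of 1742 and 1937 UMIs before thinning against 3729 in Kupffer-gated cells. The 10.2% of thinned classical monocytes was not above the T or NK share. Relative to the Kupffer-gated level, Gpnmb stood above the panel in both classes, 24.1% against 16.1% in classical monocytes and 27.5% against 16.2% in T or NK cells, and the part of background was not tested. In saline the order was another. The classical monocytes had the highest Gpnmb level, 26.6 CPM (17.1 to 39.6), from 24 UMIs in 12 of 105 cells. Endothelial cells, non-classical monocytes, dendritic cells, neutrophils and B or plasma cells of the saline mouse had 0 Gpnmb UMIs, which in 600 endothelial cells allows a level of up to 1.31 CPM by a limit of 3 counts.

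Trem2 had another order of classes. Saline classical monocytes had 68.8 CPM (52.8 to 88.2), above the 40.7 CPM of saline Kupffer-gated cells. The Ter119 classical monocytes had 89.2 CPM (67.4 to 116), so the ratio in that class was 1.30 (0.887 to 1.89), an interval that includes 1. That level was 34.3% of the one in Ter119 Kupffer-gated cells, where the Kupffer panel stood at 16.1%. In the other Ter119 classes Trem2 lay between 7.53% and 27.9% of the Kupffer-gated level.

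Tyrobp, which all myeloid cells use, was highest in saline neutrophils, at 7215 CPM (6971 to 7465). In Ter119 neutrophils it stood at 1620 CPM (1554 to 1688), 4.45-fold lower. In classical and non-classical monocytes it was at 3111 and 3212 CPM with saline and at 2874 and 2846 CPM in Ter119. Endothelial cells had 276 CPM in saline, 11.7% of the Kupffer-gated level, near the 10.4% of the Kupffer panel there.

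Spp1 was low in every class and uneven between barcodes. In Ter119 the T or NK cells had 95.6 CPM (61.9 to 141), from 25 UMIs in 118 cells, above the 30.6 CPM of Kupffer-gated cells. Erythroid cells had 53.0 CPM, but 30 of their 41 UMIs came from 1 barcode. Classical monocytes had 19 UMIs in each mouse, which is 21.1 CPM (12.7 to 32.9) and 30.3 CPM (18.2 to 47.3). Of the 12 Spp1 UMIs of saline neutrophils, 10 came from 1 barcode.

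Lpl was highest in Kupffer-gated cells of both mice. The next class was the classical monocytes, with 678 CPM (saline) and 476 CPM (Ter119), 0.702 times as high (0.610 to 0.808) where the Kupffer-gated ratio was 1.43. In the Ter119 conventional dendritic, neutrophil, endothelial, T or NK and erythroid classes Lpl lay at 11.1% to 17.1% of the Kupffer-gated level, within or under the range of the Kupffer panel. Plin2 was spread more evenly. In saline it lay between 48.9% and 88.3% of the Kupffer-gated level in endothelial cells, monocytes, dendritic cells and neutrophils, and the lymphocyte classes were lower, at 36.1% (T or NK) and 12.1% (B or plasma).

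Itgax marked the conventional dendritic cells, at 254 CPM (210 to 304) in the 44 of saline and 223 CPM (170 to 286) in the 93 of Ter119. Non-classical monocytes came next among the classes of at least 50 cells, with 142 and 118 CPM. In both classes the intervals of the 2 mice overlapped. Classical monocytes had 108 CPM with saline and 36.6 CPM with Ter119, 0.340 times (0.206 to 0.541) as high, while the Kupffer-gated ratio was 2.43. Even so the Ter119 Kupffer-gated level, 14.6 CPM, was far under that of dendritic cells. Endothelial cells, a class not known for CD11c, had 7.21 CPM, 49.3% of that level, and the part of background in these levels was not tested.

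**Figure D3:**
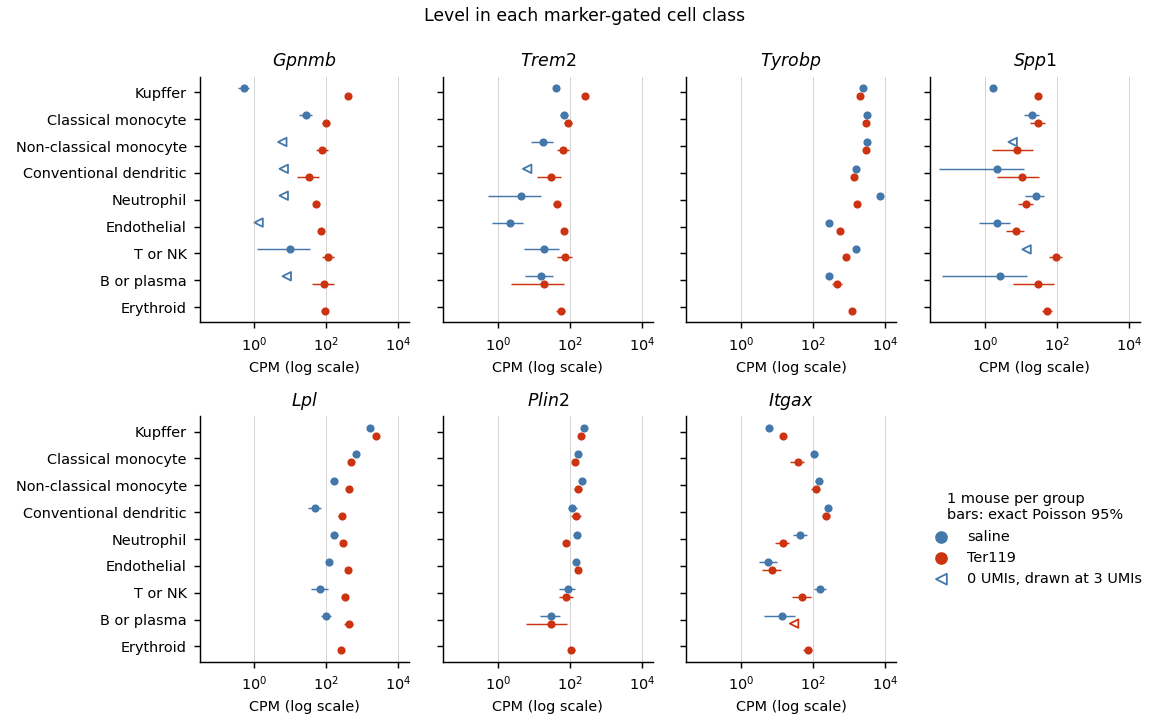
CPM of each of the 7 genes (log scale) in each marker-gated class, saline in blue and Ter119 in red, with exact Poisson 95% intervals; a class with 0 UMIs is drawn as an open triangle at the level of 3 UMIs. For Gpnmb the Kupffer row moves from 0.51 CPM to the highest level of the panel, 404 CPM, and for Itgax the dendritic row is highest in both mice.

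Within the Ter119 Kupffer-gated cells Gpnmb had no more than 7 UMIs in a thinned cell. The mean was 0.393 UMIs per cell and the variance 1.27 times the mean, where a Poisson draw gives 1, and 70.3% of cells had none where a Poisson draw with that mean gives 67.5%. The part of background in this spread was not tested. The 29.7% of cells with a UMI compares with 11.0% in T or NK cells. For Trem2 the variance was 1.11 times the mean, for Spp1 1.35 times, for Itgax 1.02 times and for Plin2 1.00 times. The abundant genes Tyrobp and Lpl gave 1.28 and 1.67 times, and since this measure grows with the mean, it does not rank the genes. Outside hemoglobin, the level of Gpnmb rose somewhat with depth. It was 372 CPM in the 1647 cells with under 2000 UMIs, then 437 and 463 CPM, and 485 CPM in the 252 deepest cells.

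Hemoglobin reads, which enter Kupffer cells with eaten red cells or droplets with free RNAstood beside modest differences. Outside hemoglobin, Gpnmb was at 469 CPM in the 2669 Ter119 Kupffer-gated cells with under 0.5% hemoglobin and at 382 CPM in the 792 with 30% or more. Trem2 stood at 304 and 279 CPM in these bins. In Ter119 Kupffer-gated cells with at most 1% hemoglobin, the Gpnmb ratio to saline was 898, and leaving hemoglobin out of the totals gave 884.

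The level of the Kupffer panel itself went with Spp1 and Itgax, and less with Gpnmb. From the 1185 cells with the lowest panel level, under 200 per 10000, to the 1299 with the highest, Spp1 went from 45.4 to 13.9 CPM and Itgax from 23.6 to 6.06 CPM. Gpnmb went from 428 to 340 CPM and Trem2 from 235 to 243 CPM. In saline the same bins gave 106 and 2.43 CPM for Itgax, 10.2 and 0.511 CPM for Spp1, 4.36 and 0.208 CPM for Gpnmb and 58.1 and 38.1 CPM for Trem2. In both of these bins Gpnmb, Trem2 and Spp1 were higher in Ter119. From 200 to under 250 per 10000 Spp1 was higher in saline, at 46.9 against 33.8 CPM. Of the 81 Spp1 UMIs of the saline cells in this bin, 77 came from the single barcode described above. The direction in this bin thus rests on that barcode, and the level without it was not computed. Timd4, a marker of long-lived Kupffer cells, was detected in 219 thinned Ter119 Kupffer-gated cells. A Gpnmb UMI was found in 20.6% of these and in 29.9% of the rest, and a Trem2 UMI in 21.5% and 21.9%. In the 226 cells with at least 3 proliferation markers, Gpnmb was at 356 CPM, against 406 CPM in the rest.

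Co-detection asks whether a cell with a UMI of 1 gene is more likely to hold a UMI of another. In the 8493 thinned Ter119 Kupffer-gated cells, 2522 had a Gpnmb UMI and 1855 a Trem2 UMI. Both were found in 639 cells, where the product of the shares gives 551, a ratio of 1.16 (1.07 to 1.25). Trem2 was thus found in 25.3% of cells with and 20.4% of cells without Gpnmb, 1.24 times as often. Among 275 other genes of like detection the median of this ratio was 1.03 and the 95th percentile 1.14. The association was weak, and the ratio of observed to expected cells was 1.09 (1.01 to 1.17) when hemoglobin UMIs were removed before thinning and 1.11 (0.990 to 1.24) in the 3619 cells with at most 1% hemoglobin.

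Gpnmb and Spp1 were found together most in excess, in 108 cells where 71.6 would be the product of the shares, a ratio of 1.51 (1.24 to 1.82). This ratio lay between 1.42 and 1.66 under the alternatives, and its interval stayed above 1 in each. Spp1 was found in 4.28% of cells with and 2.23% of cells without Gpnmb, 1.92 times as often. A ratio of at least 1.5 between cells with and without Gpnmb was reached by 0 of 2675 genes (0%) found in at least 5% of cells, but Spp1, in 2.84% of cells, is too rare to be one of these. With Spp1 itself as the dividing gene 1.91% of genes passed that ratio, with Itgax 5.87%, with Lpl 1.94%, with Tyrobp 0.0748% and with Trem2 or Plin2 0%. For the pairs of Trem2 with Spp1, 1.33 (1.04 to 1.68), and with Itgax, 1.44 (1.01 to 1.98), the interval reached 1 in 4 and in 5 of the 6 alternatives. Gpnmb and Itgax gave 1.34 (0.986 to 1.78).

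For Tyrobp and Lpl, found in most cells, the ratio of observed to expected cells has little room above 1, so their pairs are given by the share of the rarer gene. Trem2 was found in 22.6% of cells with and 18.3% of cells without Tyrobp, 1.23 times as often, where 275 genes of like detection had a median of 1.08 and a 95th percentile of 1.225. Gpnmb was found in 30.8% of cells with and 24.3% without Lpl, 1.27 times as often, where 195 like genes had a median of 1.10 and a 95th percentile of 1.28. These ratios are near the 1.24 of Trem2 by Gpnmb, but their like genes were higher too. Lpl and Plin2, both genes of lipid handling, were found together in 1306 cells against 1293 from the shares, a ratio of 1.01 (0.956 to 1.07). In all, 17 of the 21 pairs were above 1, and 11 of 21 in the cells with at most 1% hemoglobin. Such a count is no sign of association, since the median gene was also found more often in cells with than without each member, by 1.01 (Spp1) to 1.11 (Lpl) times. The interval, a Poisson interval of the cells with both genes that is wide for common genes, lay above 1 for 4 pairs. These were Gpnmb with Trem2 and Spp1, and Trem2 with Spp1 and Itgax. The intervals of the shares with and without Gpnmb were apart for Trem2, Spp1, Tyrobp and Lpl. With and without Trem2 they were apart for Tyrobp and overlapped for Spp1 and Itgax, and with and without Spp1 they were apart for Lpl. Which pairs stand out thus depends on the interval used. In saline Kupffer-gated cells only 4 thinned cells had Gpnmb and 6 had Spp1, so their pairs could not be read there. Trem2 with Lpl gave 0.986 in saline and 1.02 in Ter119. Of the thinned Ter119 cells 31.0% held 3 of the 7 genes and 10.9% held 4, against 14.5% and 0.721% of the saline cells, and 0 cells of either mouse held all 7.

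**Figure D4:**
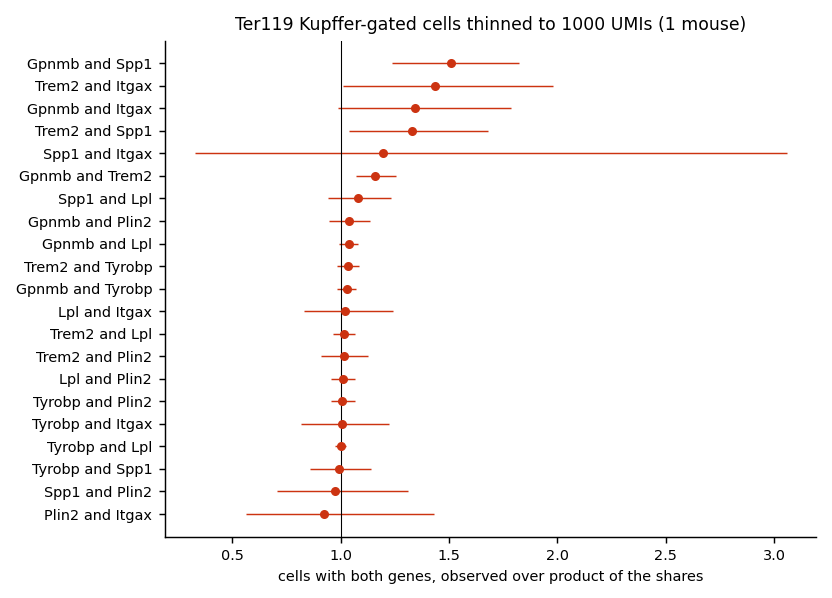
Cells with both genes over the number given by the product of the shares, with exact Poisson 95% intervals, for the 21 pairs in 8493 Ter119 Kupffer-gated cells thinned to 1000 UMIs. The pair of Gpnmb and Spp1 is highest at 1.51 and that of Gpnmb and Trem2 stands at 1.16, while pairs with the common genes Tyrobp and Lpl, for which the measure has little room above 1, lie near the line.

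Thinned Ter119 Kupffer-gated cells with and without a Gpnmb UMI were close in depth and Kupffer panel. Their median depth was 3842 and 3694 UMIs, their median hemoglobin share 1.36% and 1.98%, and the Kupffer panel stood at 270 per 10000 in both. Of 2675 genes the median ratio of detection in cells with over cells without Gpnmb was 1.02. By the rule for named genes, the highest ratios belonged to Ttc3 (1.38), Ppp2r1a (1.37), Psen2 (1.36), Mrpl17 (1.35) and Syngr1 (1.34), and the lowest to Fam220a (0.656), Bpgm (0.701), Cebpzos (0.714), Smagp (0.716) and Fam46c (0.731). Bpgm is an enzyme of red cells. The genes named here are the extremes of 2675, picked by this same ratio, and no interval was computed for them. Cells counted as without Gpnmb include some that had it before thinning, when 62.3% of all these cells did, against 29.7% after. Of 18 other lipid-associated genes found in at least 5% of cells, 0 reached 1.5 and the median was 1.10, with Cd9 at 1.19 and Cd63 at 1.17, where the 95th percentile of all 2675 genes was 1.17. Clec4f was found in 49.3% of cells with and 51.9% without Gpnmb, Hmox1, the heme oxygenase of red-cell disposal, in 96.8% and 96.5%, and Timd4 in 1.78% and 2.91%, a ratio of 0.612.

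Genes around the 7 were read from lists that name their partners. These lists, too, were drawn up with earlier results of these data known. Of 21 other lipid-associated macrophage genes 20 passed 20 CPM, 13 of them at least 2-fold higher and 0 lower in Ter119. Of all 6396 genes, 3.05% were higher and 11.3% lower. Cd9, Cd63, Fabp4, Fabp5, Lgals1, Mmp12 and Atp6v0d2 were under 20 CPM in saline and passed through Ter119 alone. Their direction was thus fixed by the filter, and the count is no test. The median log2 ratio of the list was 1.33 against -0.34 over all genes. The largest were Fabp5, a fatty acid carrier, at 14.4 and 1123 CPM (78.0-fold), Cd63, a tetraspanin of lysosomes, at 8.39 and 583 CPM (69.5-fold), Lgals1, a galectin, at 7.39 and 466 CPM (63.0-fold), and Atp6v0d2, a subunit of the lysosomal proton pump, at 1.02 and 39.9 CPM (39.1-fold). Apoe, the lipoprotein ligand of TREM2, went the other way, 10290 CPM with saline and 5183 CPM with Ter119, or 0.504 times as high.

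The other genes of the TREM2 chain had a median under that of all genes. Of 10 measured genes that carry or end the TREM2 and DAP12 signal, 0 were past 2-fold in either direction, where 3.05% of all genes were higher and 11.3% lower, so a count of 0 is near that background. Their median was -0.53, against -0.34 over all genes, and -0.14 against 0.04 with median-of-ratios factors. Hcst, which encodes the adaptor DAP10, had a ratio of 0.558, the exchange factor Vav1 0.562, the phospholipase Plcg2 0.566 and the sheddase Adam17 0.575. Among 6 measured receptors that also use DAP12 or are coupled to it, 0 were higher and 3 lower, at a median of -0.89. These were Klrk1 (NKG2D), 6.02-fold lower, Cd300ld, 2.29-fold lower, and Csf1r, the receptor of the macrophage growth factor, 2.11-fold lower, and Pilrb1 had a ratio of 0.615. With median-of-ratios or TMM factors 1 of them remained past 2-fold. Klrk1, at 76.9 and 12.8 CPM, passed 20 CPM through saline alone, so its direction was fixed by the filter.

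The receptors of osteopontin and GPNMB were all between the limits (7 measured, median -0.41), with Itga9 at 0.615, Sdc4 at 0.632, Cd44 at 0.694 and Itgb1 at 0.752. Over all genes 3.05% were higher and 11.3% lower, so a count of 0 past the limits is near that background. Among the partners of Lpl and genes of lipoprotein uptake, the scavenger receptor gene Cd36 had a ratio of 2.42, the acid lipase Lipa 1.71 and the scavenger receptor Msr1 0.587. Of 6 measured lipid droplet genes, 1 was higher and 2 lower, beside 3.05% and 11.3% of all genes. Plin3, another perilipin, had a ratio of 2.37, the fatty acid activating enzyme Acsl1 0.411, the hormone-sensitive lipase Lipe 0.432 and the sterol acyltransferase Soat1 0.689, and 0 were lower with the other scalings. Lipe, at 22.3 and 9.63 CPM, passed 20 CPM through saline alone, so its direction was fixed by the filter.

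The partner of the Itgax chain, Itgb2, was level at 1.02, while the sister alpha chains were lower. Itgal (LFA-1) stood at 695 and 222 CPM, 3.14-fold lower, and Itgam (CD11b) at 29.6 and 9.66 CPM, 3.06-fold lower. Itgam passed 20 CPM through saline alone, so its direction was fixed by the filter. The adaptor Fermt3 had a ratio of 0.613 and the ligand Icam1 one of 0.632. The remaining alpha chain, Itgad (CD11d), was just under the limit of 20 CPM and so is not counted in the list. It had 6 UMIs in saline and 646 in Ter119, 0.0826 and 19.5 CPM, a ratio of 236 (108 to 646), and was named after its values were seen. Itgam protein was 1 of the 2 targets of the beads, so its level in captured cells follows the capture. Among 10 measured MITF, TFE, PPAR and LXR regulators, 1 was higher and 0 lower, close to the 3.05% and 11.3% of all genes. Pparg, the fatty acid sensor, stood at 10.4 and 45.3 CPM, 4.37 times as high, and passed 20 CPM through Ter119 alone. Tfe3 had a ratio of 0.509, the LXR gene Nr1h3 0.574, Rxra 0.613, and Mitf, a known activator of Gpnmb in pigment cells and osteoclasts, 0.879.

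**Figure D5:**
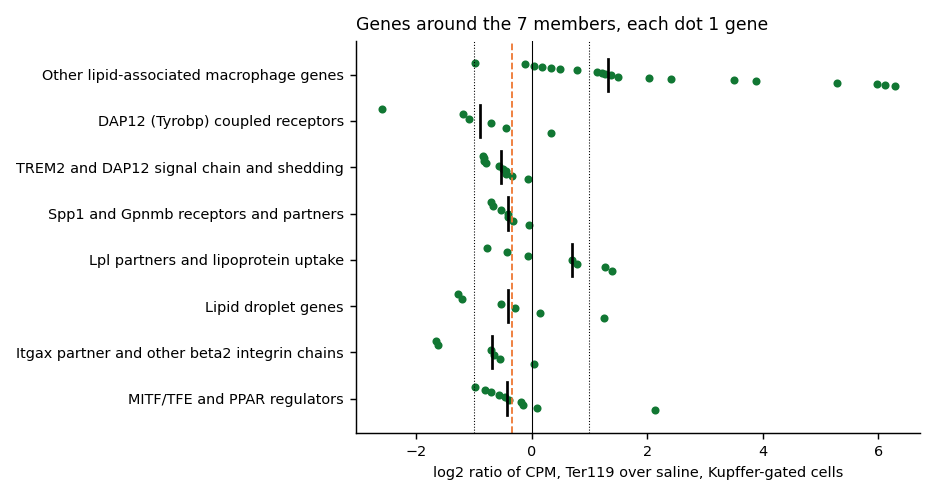
Log2 ratio of CPM, Ter119 over saline, in Kupffer-gated cells for the measured genes of 8 lists; each dot is 1 gene, the black bar the list's median, the dashed line the median of all 6396 genes (-0.34) and the dotted lines 2-fold. The lipid-associated list reaches from Apoe near -1 to Fabp5 at 6.29, the DAP12-coupled receptors lie mostly below 0 and Pparg stands alone at 2.13 among the regulators.

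Genes with the pattern most like that of 3 of the members were found over the 14 pools of a class and a mouse with at least 50 cells, by Pearson's r of log2(CPM + 10) among 9362 genes. These pools share 2 libraries, so the values describe and do not test. Free RNA of Kupffer cells also enters the other pools of the same mouse, and its part in these values was not tested. Closest to Gpnmb were Syngr1 (0.933), a synaptic vesicle protein gene, Lrrc14b (0.907), Atp6v0d2 (0.891), Trem2 (0.887) and Hbb-bt (0.877). Syngr1 and Lrrc14b were also near absent in saline Kupffer-gated cells, at 0.138 and 0.179 CPM, and stood at 60.1 and 78.5 CPM in Ter119, and Syngr1 was among the 5 genes most enriched in cells with Gpnmb. Closest to Trem2 were Gpnmb, the cytokine gene Il18 (0.879), the elastase Mmp12 (0.876), Mif (0.862) and the glycolytic enzyme gene Tpi1 (0.853). Closest to Itgax were Nectin1 (0.945), Bri3bp (0.935), Eps8 (0.917), Skint3 (0.890) and Gm2a (0.884). Among the 7, the highest value was the 0.887 of Gpnmb and Trem2, then 0.781 for Trem2 and Lpl, while Tyrobp with Trem2 stood at 0.186.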

How the data were processed

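Single-cell RNA was counted in 2 libraries, 1 mouse each. The deposited matrices hold raw UMI counts per gene and barcode, and per the file headers Cell Ranger 6.0.2 made them. GRCm38.p6, DESeq2 1.26.0, Seurat 3.2.3, Scanpy 1.7.0 and an older Cell Ranger, 4.0.0, are named in the submitters' processing notes. The sources used here do not say how hashtags assigned barcodes to mice.

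Computed here (scanpy 1.11.5, scipy 1.17.1 and pandas 2.3.3 with numpy 2.4.6, in Python 3.11.15): cells with at least 1000 UMIs, 500 genes and 15% mitochondrial UMIs at most were gated by marker panels, with thresholds set after seeing the marker distributions. Cell classes other than Kupffer needed a Kupffer panel under 100 per 10000 and at least 2 own markers. Neither a doublet caller nor a doublet filter was applied. Counts were summed per class and mouse, scaled to CPM, and compared by ratios with exact conditional binomial intervals. Levels and counts of cells with both genes have exact Poisson intervals, and shares have Clopper-Pearson intervals. All cover counting error only. For detection and co-detection each cell was thinned to 1000 UMIs. Co-detection set the cells with both genes against the product of the shares. No p-value was computed.

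Genes were named by rule: the 7 members, 4 genes per list with the largest changes, the 5 genes most like a member, and the 5 highest and 5 lowest in cells with Gpnmb. A result of the list of Lpl partners is not reported here. The members and lists were chosen with earlier results of these data known. Alternatives were other limits on UMIs and mitochondrial share, median-of-ratios and TMM factors (edgeR 4.0.16), clusters (leidenalg 0.10.2), a gate of 200, removal of hemoglobin, of shared barcodes or of 1 barcode, another seed and 2000 UMIs. Scripts were tested on simulated data.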

Additional observations from a re-analysis of the deposited data

Results flagged for a closer look

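Barcodes outside the cell filter, which above only the alternatives with looser limits use in part, also differed in Gpnmb and Trem2. Gpnmb had 5 UMIs in 6782 such saline barcodes and 2088 in 11914 of Ter119, a ratio of 368.7. Trem2 there went from 292 to 1401 UMIs, a ratio of 4.236. Of the other members only Lpl turned, with a ratio of 0.723 (0.705 to 0.742) there and 1.43 in Kupffer-gated cells. Plin2, at 0.440, and Tyrobp, at 0.750, were lower in Ter119, as in Kupffer-gated cells (0.826 and 0.856). Spp1, at 1.33 (1.08 to 1.66), and Itgax, at 1.21 (0.938 to 1.57), had smaller ratios than in Kupffer-gated cells (17.8 and 2.43). The Itgax interval includes 1. The kept cells that no gate took also had Gpnmb, 3.60 CPM for saline against 222 CPM for Ter119, or 61.7 times (38.4 to 106) as much.

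In a few classes a gene went the other way than in Kupffer-gated cells, and these differences between classes were not tested. The log2 ratio of Lpl was -0.5096 in classical monocytes and 0.52 in Kupffer-gated cells. For Itgax it was -1.555 in classical monocytes and -1.629 in neutrophils, against 1.28 in Kupffer-gated cells. Itgax was also lower in T or NK cells, at 0.320 times (0.154 to 0.628), a class of 29 saline cells. Tyrobp, at 0.856 times in Kupffer-gated cells, was 1.98 times (1.79 to 2.19) as high in endothelial cells and 1.65 times (1.15 to 2.35) in B or plasma cells. As a share of the Kupffer-gated level, Tyrobp went from 11.7% to 27.0% in endothelial cells, and the Kupffer panel from 10.4% to 21.8%. In B or plasma cells (68 and 45) Tyrobp went from 11.8% to 22.7% and the panel from 7.27% to 16.8%. The part of background was not tested. The first named classes hold 105 and 274 classical monocytes and 195 and 568 neutrophils in saline and Ter119.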

How the results depend on the processing

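No paired analysis was possible because each group is 1 mouse and no replicate number is shared beyond that. Gpnmb, Trem2, Spp1 and Lpl kept their direction under all 13 alternatives, with log2 ratios of 9.44 to 10.01, 2.40 to 3.06, 4.06 to 6.23 and 0.39 to 0.90, and Itgax with 0.91 to 1.67. Tyrobp and Plin2 changed sign with median-of-ratios factors (0.1602 and 0.1091) and with TMM factors (0.1346 and 0.08344), by construction of the scaling. The members past 2-fold numbered 4, and 3 with the 5% mitochondrial limit or with thinning before summing, where Itgax fell under the limit. The limit of 5% left 1563 saline and 4138 Ter119 cells. Pairs above 1 numbered 17 of 21, and 11 without cells over 1% hemoglobin, and the pair of Trem2 and Itgax stood at 0.998 when cells were thinned to 2000 UMIs; the cause was not tested. Chosen after seeing the data were the removal of hemoglobin UMIs from totals or before thinning, the removal of the saline barcode with most Spp1, and thinning before summing. Depth differs between the mice, and thinning equalises UMIs per cell and not RNA quality. With 1 mouse a group, effects of the treatment and of the single animal or library cannot be told apart. Rare genes (Spp1, Itgax) are limited by few UMIs.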

Other observations

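Saline Kupffer-gated cells held Gpnmb in 30 barcodes, whose median depth was 10330 UMIs against 6784 in the others. Without thinning, Itgax was found in 20% of these and 2.66% of the others, Trem2 in 30% and 20.3%, and Spp1 in 6.67% and 0.434%. In the 12 saline classical monocytes with Gpnmb, Itgax was found in 58.3% against 28.0% of the others, and Trem2 in 41.7% against 31.2%. The deeper cells show more of any gene, and its part in these shares was not tested.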
